A study of Homo sapiens with 2 samples.

Results

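Contacts on chromosome 11 in METTL3 HiChIP of IMR90 fibroblasts are described here in 6 bands along the chromosome. The members are all deposited interactions on chromosome 11, 612 of 12221 in the control library and 7809 of 150390 in the senescent library, and no filter on low values was applied. Each was placed by the midpoint of the contact at 0 to 4, 4 to 51, 55 to 61, 61 to 78, 78 to 110 or above 110 Mb (hg19), and no contact fell in the stretch from 51 to 55 Mb between the bands. The 2 libraries came from IMR90 cells, a line of diploid fibroblasts from human embryonic lung, labelled with a WT genotype in both groups and grown in 2% oxygen. The control group was 1 library labelled control. The senescent group was 1 library of cells made senescent by induced expression of ER: RAS, in which the estrogen receptor is fused to the oncogenic H-RASG12V. Whether the control cells carried the fusion without induction, the time of induction and the number of cultures behind each library were not given in the sources used here.

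METTL3 is the catalytic subunit of the complex that writes N6-methyladenosine on RNA, and it is also found on chromatin. In HiChIP, cut DNA is ligated within fixed nuclei, so that neighbouring fragments are joined, and immunoprecipitation then enriches the joined fragments that carry a protein of interest. Oncogene-induced senescence is a lasting arrest of the cell cycle that goes with secretion of cytokines and proteases and with large-scale rearrangement of chromatin. Chromosomes alternate between gene-dense stretches, which tend to lie in the active compartment, and gene-poor stretches, which tend to lie at the nuclear lamina.

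Landmark genes show what each band is known for. The 0 to 4 Mb band holds HRAS, the tetraspanin gene CD151 and the imprinted genes H19, IGF2, CDKN1C and PHLDA2. The 4 to 51 Mb band begins with olfactory receptor genes and holds the genes of the growth factor BDNF, the transcription factors WT1 and LMO2 and the hyaluronan receptor CD44. The 55 to 61 Mb band begins with another group of olfactory receptor genes. The 61 to 78 Mb band is dense in genes and holds the nuclear RNA genes NEAT1 and MALAT1, the NF-kB subunit gene RELA, the AP-1 subunit gene FOSL1 and the cyclin gene CCND1. The 78 to 110 Mb band is poor in genes over long stretches and holds YAP1, the apoptosis inhibitor genes BIRC2 and BIRC3, the matrix metalloproteinase genes MMP1, MMP3 and MMP10, and ATM. Above 110 Mb lie CBL, MCAM, THY1, the microRNA host gene MIR100HG, and ETS1 and FLI1 of the ETS family of transcription factors. RefSeq (GRCh38.p14) listed 1301 protein-coding genes on chromosome 11, of which 171 were olfactory receptor genes, out of 392 such genes in the genome. These genes were assigned to bands and to anchors from general knowledge of hg19, because no annotation of that build was used; RefSeq supplied names, the shared chromosome and the order of the 32 landmark genes.

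Promoters from RefSeq (GRCh38.p14, not comparable with the hg19 positions elsewhere) show the sequence at a gene of the gene-dense 61 to 78 Mb band and at one of the gene-poor 78 to 110 Mb band. They are MALAT1 at chr11:65497488-65497787 on the plus strand, the first of 2 starts listed for this gene, and MMP10 at chr11:102780579-102780878 on the minus strand. Each runs from 250 bases before the start to 50 bases after it.
MALAT1: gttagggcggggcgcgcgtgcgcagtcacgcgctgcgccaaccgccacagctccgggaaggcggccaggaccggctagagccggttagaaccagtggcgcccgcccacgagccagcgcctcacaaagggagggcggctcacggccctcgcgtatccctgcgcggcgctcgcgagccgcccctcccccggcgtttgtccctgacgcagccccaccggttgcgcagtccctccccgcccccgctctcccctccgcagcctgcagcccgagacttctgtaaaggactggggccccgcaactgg
MMP10: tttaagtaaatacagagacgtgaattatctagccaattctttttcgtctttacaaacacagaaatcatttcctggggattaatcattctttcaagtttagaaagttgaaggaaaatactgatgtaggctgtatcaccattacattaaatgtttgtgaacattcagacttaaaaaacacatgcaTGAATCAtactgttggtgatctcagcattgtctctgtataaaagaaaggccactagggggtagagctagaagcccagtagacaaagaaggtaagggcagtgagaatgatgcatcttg
The MALAT1 window holds 37 CG dinucleotides and the MMP10 window 2, against a median of 14 over all 35116 promoters and 10 over the 1893 of chromosome 11. The other MALAT1 start listed has 14 CG dinucleotides and 1 GATC in its window, so the contrast holds for the start shown. Capitals mark the AP-1 motif TGANTCA, which reads the same on both strands. It is found 1 time in the MMP10 window, not in the MALAT1 window, and in 7.71% of all promoters of this length. The enzyme MboI, used in these libraries, cuts at GATC, which is found 1 time in the MMP10 window, not in the MALAT1 window, and in 41.7% of all promoters. At the site above 110 Mb where the control library was densest, MIR100HG hosts 3 microRNAs, given here as mature RNAs from RefSeq with the seed (bases 2 to 8) in capitals.
hsa-miR-100-5p: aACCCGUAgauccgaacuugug
hsa-let-7a-5p: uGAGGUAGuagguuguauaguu
hsa-miR-125b-5p: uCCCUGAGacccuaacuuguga
The 3 seeds differ from each other.

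Each row of the deposited tables joined 2 genomic intervals, called anchors, by a whole number of paired-end tags (PETs). Chromosome 11 held 723 PETs between 571 anchors in the control library and 9620 PETs between 3719 anchors in the senescent library. Only joined pairs were listed, so these totals are not sequencing depths and an empty region sets no upper limit. With 1 library per group there is no replicate check and no test between groups, and the state of the cells and the library cannot be told apart. Intervals are 95% intervals (Clopper-Pearson for shares, conditional binomial for ratios, order statistics for medians) and cover counting error only. PETs that copy the same molecule would make them too narrow.

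The 2 libraries filled different bands of the chromosome. As a whole, chromosome 11 held 5.02% of the autosomal control interactions and 5.23% of the senescent ones, a ratio of 1.04 (0.960 to 1.13), and that near-equal share was made of bands that differed in opposite directions. In the control library the bands from 78 to 110 Mb and above 110 Mb were densest, with 5.41 and 6.0 interactions per Mb, followed by 5.15 per Mb at 4 to 51 Mb. The control library was thin at 61 to 78 Mb (2.59 per Mb), 55 to 61 Mb (0.667 per Mb) and 0 to 4 Mb (0.250 per Mb). In the senescent library the bands at 61 to 78 Mb and 0 to 4 Mb were densest, with 139.8 and 134.8 interactions per Mb, and the band at 78 to 110 Mb was thinnest, with 20.8 per Mb. Between 61 to 78 Mb and its neighbour at 78 to 110 Mb the density ratio was 0.479 (0.336 to 0.670) in the control library and 6.74 (6.18 to 7.35) in the senescent library.

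**Figure D1:**
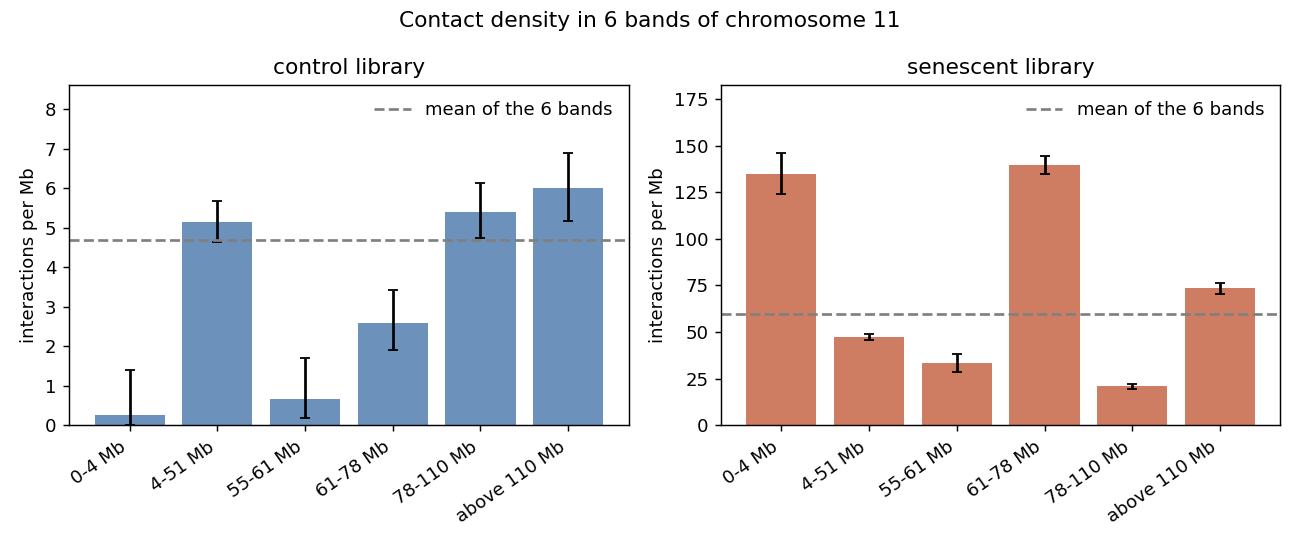
Interactions per Mb in each of the 6 bands of chromosome 11, with the control library on the left and the senescent library on the right on separate linear axes. Bars give the density, error bars the 95% Clopper-Pearson interval of the band's share expressed per Mb, and the dashed line the mean density of 4.68 per Mb (control) or 59.8 per Mb (senescent). The control bar at 78 to 110 Mb lies above the mean and the senescent bar there is the lowest of the 6.

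The band at 61 to 78 Mb had the largest number of senescent contacts. It held 44 control interactions, 7.19% of the chromosome (5.27 to 9.53%), and 2377 senescent interactions, 30.4% (29.4 to 31.5%). The ratio of shares, senescent over control, was 4.23 (3.14 to 5.84). All 17 of its 1-Mb windows held senescent PETs, with a median of 159, and 8 of them held no control PET. The fullest window in both libraries was the one at 65 to 66 Mb, with 17 control and 535 senescent PETs, where NEAT1, MALAT1, RELA and FOSL1 lie. Its neighbours at 64 to 65 Mb and 66 to 67 Mb had 307 and 247 senescent PETs and none in the control library. From 66 to 72 Mb, a stretch that holds GSTP1 and CCND1, the control library listed 2 PETs and the senescent library 974. The end of the band was different. From 73 to 76 Mb the control library listed 29 PETs and the senescent library 400, a ratio per deposited PET of 1.08 (0.738 to 1.63). The windows at 65 to 66, 74 to 75 and 75 to 76 Mb together held 67.9% of the control PETs of the band (54.0 to 79.7%), while the fullest 3 senescent windows, at 64 to 67 Mb, held 35.8% (34.1 to 37.5%).

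Within this band the site at NEAT1 and MALAT1 was joined in both libraries. The control interaction with the most PETs joined 65197201 to 65200689, in NEAT1, with 65257563 to 65262406, just before MALAT1. It had 3 PETs over 61.04 kb, and no senescent interaction joined anchors overlapping both of these. The senescent interaction with the most PETs, also the strongest of the chromosome, joined 65238156 to 65251023 with 65252117 to 65266955, which reaches into MALAT1. It had 16 PETs over 14.9 kb, where 2 control interactions with 2 PETs overlapped both ends. The latter anchor had 25 partners and 51 PETs in the senescent library. The 3 control anchors that overlapped it had 12 partners and 20 PETs in sum, where an interaction between 2 of them counts 2 times. The whole window at 65 to 66 Mb listed 17 control PETs, so this sum exceeds the control PETs present. The most connected senescent anchor of the band, at 65654167 to 65690440 over FOSL1, had 36 partners and 72 PETs. The 2 control anchors that overlapped it had 2 partners and 2 PETs, summed in the same way. Of the 36 partners 20 lay after the senescent anchor and 16 before it. Within 100 kb lay 18, and 15 were joined by at least 2 PETs.

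The bands at 0 to 4 Mb and 55 to 61 Mb were nearly empty in the control library. At 0 to 4 Mb the control library listed 1 interaction with 2 PETs, between 3801723 to 3804005 and 3807007 to 3809172, and nothing before it. The senescent library listed 539 interactions with 679 PETs, 6.90% of the chromosome (6.35 to 7.49%), and the ratio of shares was 42.2 (7.55 to 1672) on that 1 control interaction. It was 25.5 (7.04 to 211) counting PETs and 6.61 (1.16 to 264.0) with at least 2 PETs. The window at 0 to 1 Mb, the first of the chromosome, held 305 senescent PETs, followed by 151, 139 and 84 in the next windows. The most connected senescent anchor of the band was at 546589 to 557902, close to HRAS, with 16 partners and 21 PETs. The next was at 1288392 to 1302453, with 15 partners and 23 PETs, and no control anchor overlapped either. Of the 249 senescent anchors of the band, 1 overlapped a control anchor. The strongest senescent interaction of the band, with 10 PETs over 14.1 kb, joined 824841 to 836803 with 837634 to 852185, both of which overlap CD151. At 55 to 61 Mb the libraries listed 4 and 199 interactions, with a ratio of shares of 3.899 (1.499 to 14.5). With at least 2 PETs it was 1.21 (0.310 to 10.4), on 2 control interactions, and with the inner edges moved 1 Mb up it was 7.25 (2.81 to 26.7). The ratio was 5.18 (0.905 to 207) without the fullest window of each library, where 1 control interaction was left. The most connected senescent anchors of this band, at 57199202 to 57204884 and 60668372 to 60675741, had 9 partners each and no control counterpart. Of its 110 senescent anchors, 3 overlapped a control anchor. The fullest control window, at 58 to 59 Mb, held 5 control and 39 senescent PETs, and the fullest senescent window, at 57 to 58 Mb, held 106 senescent PETs and none of the control. The strongest senescent interaction, with 7 PETs over 5.96 kb, joined 59314860 to 59321435 with 59322098 to 59326121.

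The band at 78 to 110 Mb had the lowest senescent share relative to control. It held 173 control interactions, 28.3% (24.7 to 32.0%), and 664 senescent interactions, 8.50% (7.89 to 9.14%), a ratio of shares of 0.301 (0.254 to 0.358). Without any scaling, the senescent library still listed 3.84 times as many interactions here (3.24 to 4.56), against 54.0 times at 61 to 78 Mb (40.1 to 74.6) and 12.8 times over the chromosome. The control contacts were bunched: 55.4% of the control PETs (48.3 to 62.3%) lay in 3 of 32 windows, at 95 to 96, 102 to 103 and 86 to 87 Mb. These same windows were the fullest 3 of the senescent library, where they held 44.04% (40.5 to 47.6%). At 95 to 97 Mb the libraries held 71 and 128 PETs, a ratio per deposited PET of 0.141 (0.104 to 0.191). The windows there, with 56 and 15 control PETs against 100 and 28 senescent PETs, had the 2 lowest ratios of the chromosome among windows with at least 20 PETs. The next lowest was at 106 to 107 Mb, with 8 and 17 PETs and a ratio of 0.166 (0.0678 to 0.444). The most connected control anchors of the band also lay there, at 95967596 to 95973128 and 96033883 to 96046337, with 9 partners each. The senescent anchors over them had 6 and 13 partners. A senescent anchor close by, at 96071441 to 96077641, had 16 partners, all of them before it, and no control anchor overlapped it.

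The fullest senescent window of the 78 to 110 Mb band, at 102 to 103 Mb, is the one with the metalloproteinase genes and with BIRC2 and BIRC3. It held 40 control and 124 senescent PETs, a ratio per deposited PET of 0.242 (0.168 to 0.355). The most connected senescent anchor of the band lay over MMP1, the gene of the interstitial collagenase, at 102656193 to 102672112. It had 19 partners and 23 PETs, and no control anchor overlapped it, as with most senescent anchors of the band. The window as a whole was one of the fullest of the control library. The control interaction with the most PETs of the band, 4 over 7.56 kb, lay in the same window between 102851156 to 102853729 and 102858415 to 102861593. The senescent library had 1 interaction with 2 PETs over both of its ends. The senescent interaction with the most PETs, also 4, joined 86381049 to 86384232 with 86445483 to 86456178 over 68.2 kb and had no control counterpart. Of the 32 windows, 7 were empty in both libraries, and the senescent library had no anchor from 80042530 to 82399515.

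The band at 4 to 51 Mb, the longest, was itself a mosaic. It held 242 control interactions, 39.5% (35.6 to 43.5%), and 2215 senescent interactions, 28.4% (27.4 to 29.4%), a ratio of shares of 0.717 (0.628 to 0.823). With interactions of at least 2 PETs the ratio was 1.04 (0.686 to 1.64), on 24 control interactions. From 4 to 8 Mb, where olfactory receptor genes lie, the control library listed nothing and the senescent library 102 PETs, of which 76 were in the window at 6 to 7 Mb. From 8 to 14 Mb the libraries held 138 and 861 PETs, a ratio per deposited PET of 0.487 (0.406 to 0.587). The 2 most connected control anchors of the band were there, at 10282040 to 10286683 with 10 partners and at 10322434 to 10326759 with 8. No senescent anchor overlapped the first, and the 1 senescent anchor over the second had 14 partners. The most connected senescent anchor of the band was also there, at 12176177 to 12208497, with 31 partners and 54 PETs. The 3 control anchors that overlapped it had 10 partners and 11 PETs in sum, where an interaction between 2 of them counts 2 times. From 21 to 27 Mb the direction did not need scaling: the control library held 22 PETs and the senescent library 12. From 33 to 37 Mb, which holds LMO2 and CD44, the libraries held 61 and 665 PETs, a ratio per deposited PET of 0.851 (0.654 to 1.13). The senescent anchor at 35233490 to 35246831 in CD44 had 19 partners, against 2 partners of the 1 control anchor over it. The strongest control interaction of the band also lay here, with 5 PETs over 8.22 kb between 35378861 to 35380881 and 35385050 to 35391142, where the senescent library had 1 interaction with 1 PET. The strongest senescent one, with 9 PETs over 11.9 kb, joined 34362269 to 34373201 with 34377237 to 34381935 and had no control counterpart. From 43 to 49 Mb they held 8 and 623 PETs, a ratio per deposited PET of 6.08 (3.07 to 14.1).

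Stretches without any anchor bounded these islands. The longest in the control library ran from 47640519 to 58068014, across the centromere, over 10.4 Mb that held 76 senescent anchors. In the senescent library the longest ran from 48216479 to 56836914, over 8.62 Mb with no control anchor either. The next in both libraries overlapped, from 36493304 to 44585564 in the control library and from 37811126 to 43529192 in the senescent library. The control library also had no anchor from 59331045 to 64794263, where the senescent library had 269, or from 65888653 to 69063140, where it had 185. No interaction of either library crossed the centromere. The longest listed span was 1997 kb, and neither library had an anchor in the 8.62 Mb stretch around the centromere. The absence of such contacts therefore says nothing about contacts between the arms.

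The band above 110 Mb held about the same share in both libraries, spread differently over its windows. It had 148 control interactions, 24.2% (20.8 to 27.8%), and 1815 senescent interactions, 23.2% (22.3 to 24.2%), a ratio of shares of 0.961 (0.812 to 1.14). In the control library 59.02% of its PETs (51.5 to 66.2%) lay in 3 windows, at 122 to 123, 121 to 122 and 116 to 117 Mb, while the fullest 3 senescent windows held 27.02% (25.1 to 28.96%). At 121 to 123 Mb, around MIR100HG, the libraries held 87 and 262 PETs, a ratio per deposited PET of 0.235 (0.184 to 0.303). The most connected control anchor of the chromosome, at 121950928 to 121961166 in MIR100HG, had 14 partners and 17 PETs, and the 1 senescent anchor over it had 7 partners and 9 PETs. The next control anchor, at 122057841 to 122061427, had 11 partners, as had the senescent anchor over it. The strongest control interaction of the chromosome, with 6 PETs over 10.8 kb, joined 121996683 to 122001434 with 122006349 to 122013269 in the same gene and had no senescent counterpart. The most connected senescent anchor of the band lay beyond, at 122525228 to 122544539, with 23 partners and 45 PETs and no control anchor, and was also an end of the strongest senescent interaction of the band, with 7 PETs over 17.6 kb. The next, at 128316827 to 128331244 at the 3' end region of ETS1, had 21 partners against 1 control partner. Of the 892 senescent anchors of the band, 101 (11.3%) overlapped a control anchor. The window at 128 to 129 Mb, with ETS1 and FLI1, was the fullest of the senescent band, with 18 control and 236 senescent PETs, a ratio per deposited PET of 1.02 (0.633 to 1.76). From 132 to 135 Mb, the end of the chromosome, only the senescent library listed contacts, with 85 PETs.

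**Figure D2:**
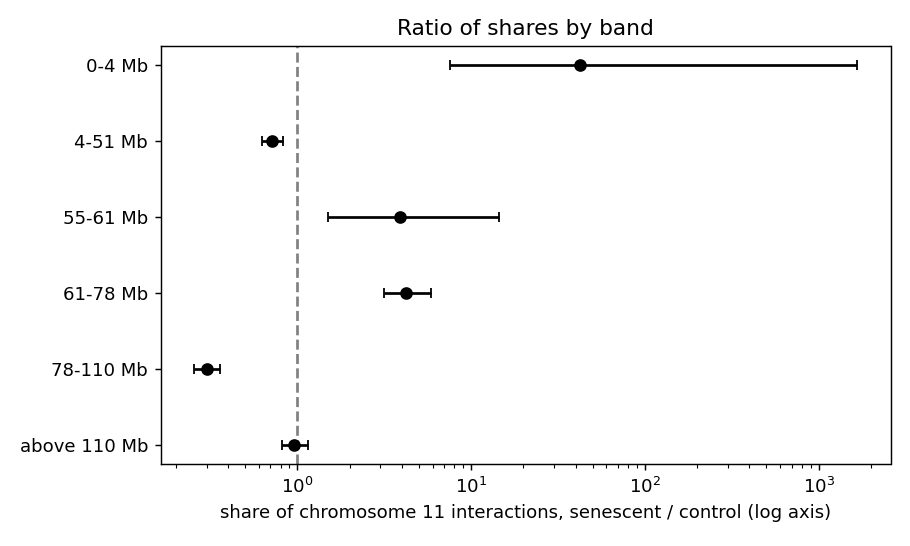
Ratio of the share of chromosome 11 interactions in each band, senescent over control, on a log axis, with 95% conditional binomial intervals. Values run from 0.301 at 78 to 110 Mb to 42.2 at 0 to 4 Mb, and only the interval of the band above 110 Mb holds 1 (dashed line).

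Windows of 1 Mb divide the same contacts more finely, so they are not a second observation of the contrast between bands. Of the autosomal windows with at least 20 PETs over both libraries, 1675 in all, the senescent library was at least 2-fold higher per deposited PET in 46.9% and at least 2-fold lower in 25.4%. Of 86 such windows on chromosome 11, 49 were higher, 23 of which listed nothing in the control library, and 16 were lower. A window with nothing listed in the control library counts as higher whatever its senescent PETs, here and in the background. The minimum of 20 PETs was met mostly through the larger senescent table. The 7 windows of chromosome 11 with more control than senescent PETs all fell below it. With at least 10 PETs 54 windows were higher and 24 lower, and with at least 50 PETs 42 were higher and 11 lower. By the interval of the ratio, 30 windows lay above 1 and 16 below 1, with 12 above and 0 below at 61 to 78 Mb and 1 above and 7 below at 78 to 110 Mb. The share of all autosomal windows was not computed for this call, so these counts have no background. At 61 to 78 Mb 13 of 17 windows were higher and none lower, and at 0 to 4 Mb all 4 were higher. At 78 to 110 Mb 2 of 13 were higher and 6 lower, and at 4 to 51 Mb 14 of 27 were higher and 7 lower. Above 110 Mb 13 of 21 were higher and 3 lower. The windows at 69 to 70 and 70 to 71 Mb had the highest ratios among those with control PETs, with 1 control PET each against 207 and 172 senescent PETs, ratios of 16.2 (2.87 to 641) and 13.4 (2.38 to 533), followed by the window at 44 to 45 Mb, with 1 and 106 PETs, a ratio of 8.27 (1.45 to 329.8).

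**Figure D3:**
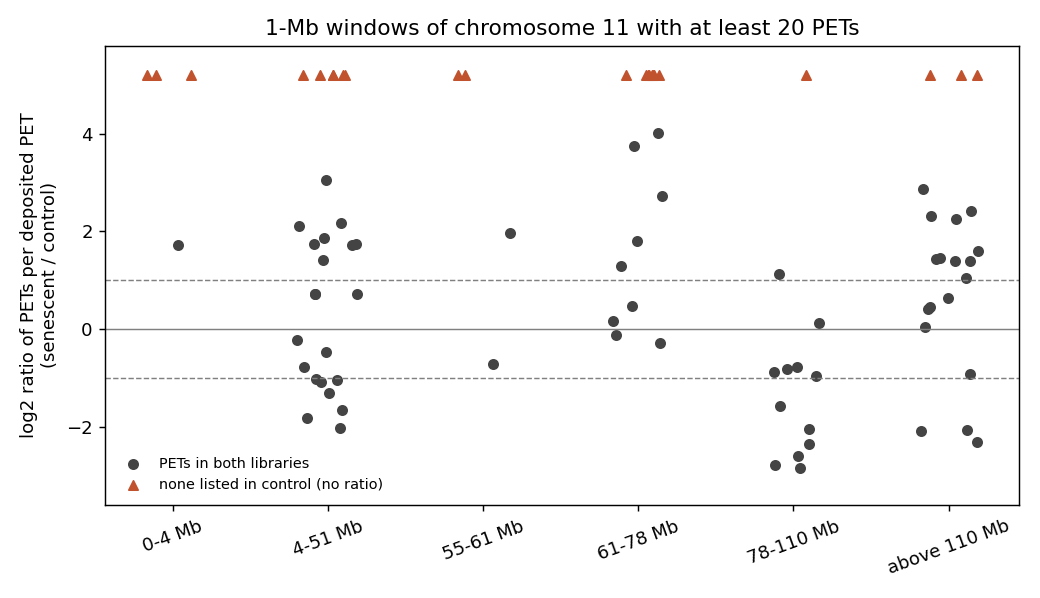
Each point is a 1-Mb window of chromosome 11 with at least 20 PETs over both libraries, placed by band and by the log2 ratio of PETs per deposited PET, senescent over control. Dashed lines mark 2-fold, points are spread sideways at random, and triangles at the top mark the 23 windows with no PET listed in the control library. The windows at 78 to 110 Mb lie mostly below 0 and those at 61 to 78 Mb mostly above.

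The edges of the bands were sharp at some places and not at others. Across the edge at 4 Mb the senescent PETs per window went from 84 to 3, across 61 Mb from 61 to 202, and across 110 Mb from 11 to 70. Across 78 Mb they went from 47 to 61, so that the decrease came further in, with 11 PETs at 79 to 80 Mb and none from 80 to 82 Mb. Contacts across edges were few: 1 of 612 control interactions (0.163%, 0.00414 to 0.907%) and 54 of 7809 senescent interactions (0.692%, 0.520 to 0.901%). This was not particular to these edges. With the inner edges moved 1 Mb up, 3 control (0.490%) and 70 senescent interactions (0.896%) crossed them. Moved 1 Mb down, 2 (0.327%) and 67 (0.858%) did.

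Spans differed between the libraries in some bands only. The distance between anchor midpoints had a median of 73.1 kb (58.6 to 84.5 kb) in the control library and 93.0 kb (88.7 to 99.4 kb) in the senescent library over the whole chromosome. Above 110 Mb the medians were 44.9 kb (34.7 to 69.6 kb) and 118.7 kb (104.0 to 130.8 kb), and at 61 to 78 Mb they were 38.9 kb (17.8 to 68.1 kb) and 82.3 kb (75.97 to 91.3 kb). At 4 to 51 Mb they were 103.7 kb (68.8 to 126.2 kb) and 101.8 kb (88.5 to 112.3 kb), and at 78 to 110 Mb 89.4 kb (65.98 to 125.6 kb) and 100.5 kb (84.8 to 119.9 kb), so that the intervals overlapped in both. Within the senescent library spans were shortest at 55 to 61 Mb, with a median of 57.7 kb (47.4 to 79.5 kb), and at 0 to 4 Mb, with 69.4 kb (58.7 to 81.8 kb). Above 110 Mb, contacts of 20 to 100 kb made up 45.3% of the control interactions (37.1 to 53.7%) and 28.5% of the senescent ones (26.4 to 30.6%), while those of 500 kb and over made up 10.8% (6.31 to 16.96%) and 20.99% (19.1 to 22.9%). With at least 2 PETs the ratio of medians, senescent over control, was 1.20 (0.487 to 3.01) above 110 Mb in place of 2.64 (1.49 to 3.77), and 0.736 (0.276 to 2.19) at 61 to 78 Mb in place of 2.12 (1.12 to 5.12). Its interval joins the limits of the 2 medians. The longest contacts had 1 PET each and spanned 1911 to 1997 kb in the 6 senescent bands, and 1483 to 1922 kb in the 4 control bands with more than 4 interactions. The shortest contacts spanned 5.03 to 5.07 kb in the 6 senescent bands. Whether the calling of interactions set a lower or an upper limit on span was not stated. The medians and the span classes would depend on such limits.

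**Figure D4:**
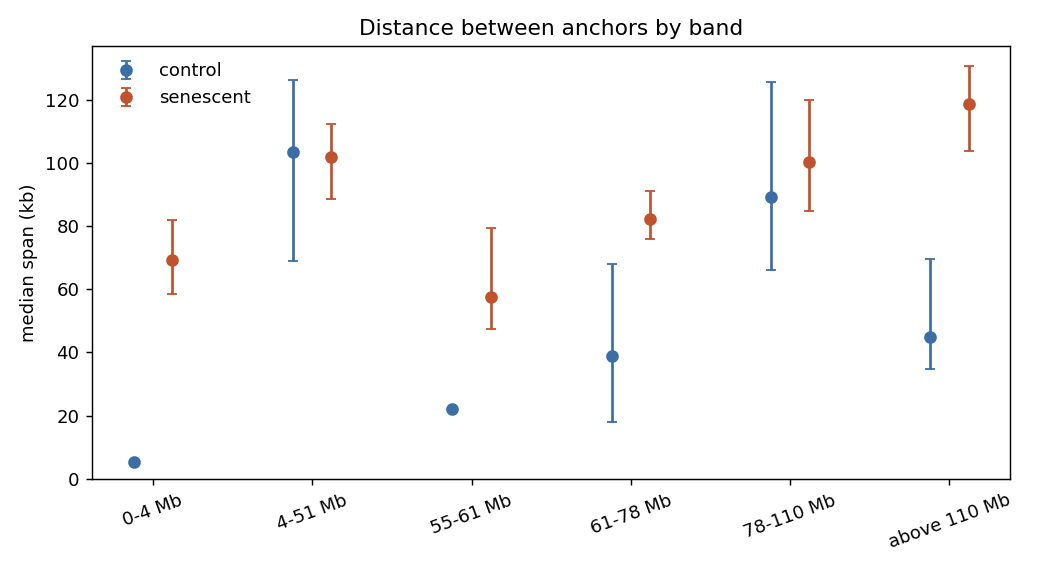
Median distance between anchor midpoints in kb by band, with 95% order-statistic intervals, for the control and the senescent library. The control bands at 0 to 4 and 55 to 61 Mb have 1 and 4 interactions and no interval. The libraries lie apart at 61 to 78 and above 110 Mb and overlap at 4 to 51 and 78 to 110 Mb.

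Most contacts rested on 1 PET in every band with more than 4 interactions. At least 2 PETs were seen in 13.6% of the control interactions (10.9 to 16.5%) and 14.5% of the senescent ones (13.7 to 15.3%). Within the senescent library the share was 16.7% (13.6 to 20.1%) at 0 to 4 Mb, 16.6% (11.7 to 22.5%) at 55 to 61 Mb, 16.1% (14.7 to 17.7%) at 61 to 78 Mb and 15.3% (13.8 to 16.9%) at 4 to 51 Mb. It was lower at 78 to 110 Mb, with 11.3% (8.99 to 13.95%), and above 110 Mb, with 11.6% (10.1 to 13.1%). Of contacts under 20 kb, 39.96% at 61 to 78 Mb (35.5 to 44.5%) and 40.2% at 4 to 51 Mb (35.5 to 45.0%) had at least 2 PETs, against 28.7% at 78 to 110 Mb (21.1 to 37.3%) and 30.7% above 110 Mb (25.8 to 35.99%). From 100 to 500 kb the value was 6.16% at 78 to 110 Mb (3.32 to 10.3%) and 4.87% at 61 to 78 Mb (3.45 to 6.65%), with overlapping intervals. In the control library the intervals of the bands overlapped, with 9.92% (6.46 to 14.4%) at 4 to 51 Mb and 22.7% (11.5 to 37.8%) at 61 to 78 Mb. At 4 to 51 Mb the senescent share was 1.54 times the control share (1.02 to 2.44), and 1.09 times (0.659 to 1.91) with spans of 20 kb or more.

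Median anchor widths differed between the libraries beyond their intervals at 4 to 51 Mb, and anchors over 10 kb were most common at 0 to 4 Mb in the senescent library. The senescent anchors covered 28.8% of the 0 to 4 Mb band and 22.3% of the 61 to 78 Mb band, against 4.66% at 78 to 110 Mb. In the control library no band was covered by more than 1.59%. Median widths in the senescent library were 3448 bp (3210 to 3920 bp) at 0 to 4 Mb, 2938 bp (2865 to 3052 bp) at 61 to 78 Mb and 2784.5 bp (2700 to 2926 bp) at 78 to 110 Mb. At 61 to 78 Mb the control median was 2557 bp (2309 to 3056 bp), an interval that overlaps the senescent one. At 78 to 110 Mb the control anchors had a median width of 2733.5 bp (2566 to 2912 bp), and above 110 Mb the medians were 2841 bp (2619 to 3026 bp) in the control and 2891 bp (2820 to 3013 bp) in the senescent library, with overlapping intervals in both bands. At 4 to 51 Mb they were 2637 bp (2526 to 2842 bp) and 2955 bp (2887 to 3062 bp). Anchors over 10 kb numbered 20 of 249 (8.03%, 4.98 to 12.1%) at 0 to 4 Mb, 37 of 983 (3.76%, 2.66 to 5.15%) at 61 to 78 Mb and 5 of 446 (1.12%, 0.365 to 2.60%) at 78 to 110 Mb in the senescent library. The control library had 3 on the whole chromosome.

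Anchors with many partners were most common at 61 to 78 Mb and least common at 78 to 110 Mb in the senescent library. Of its anchors, 42.7% (39.6 to 45.9%) had at least 5 partners at 61 to 78 Mb and 18.8% (15.3 to 22.8%) at 78 to 110 Mb, with 33.6 to 37.3% in the other 4 bands. The mean number of partners was 4.84 at 61 to 78 Mb and 2.98 at 78 to 110 Mb. Among anchors 2 to 5 kb wide the mean was again highest at 61 to 78 Mb, with 3.96, and lowest at 78 to 110 Mb, with 2.69. Between them lay 3.56 at 4 to 51 Mb, 3.46 above 110 Mb, 3.41 at 0 to 4 Mb and 3.29 at 55 to 61 Mb, so that the 0 to 4 Mb band was not second here as it was over all widths. In the control library 0 of 51 anchors had at least 5 partners at 61 to 78 Mb (an interval up to 6.98%), against 8.02% (4.34 to 13.3%) at 78 to 110 Mb and 11.6% (6.47 to 18.7%) above 110 Mb. The senescent library listed 13.3 times as many PETs on chromosome 11 as the control library, whose part in the number of partners was not tested, and levels are therefore set side by side between bands of 1 library.

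**Figure D5:**
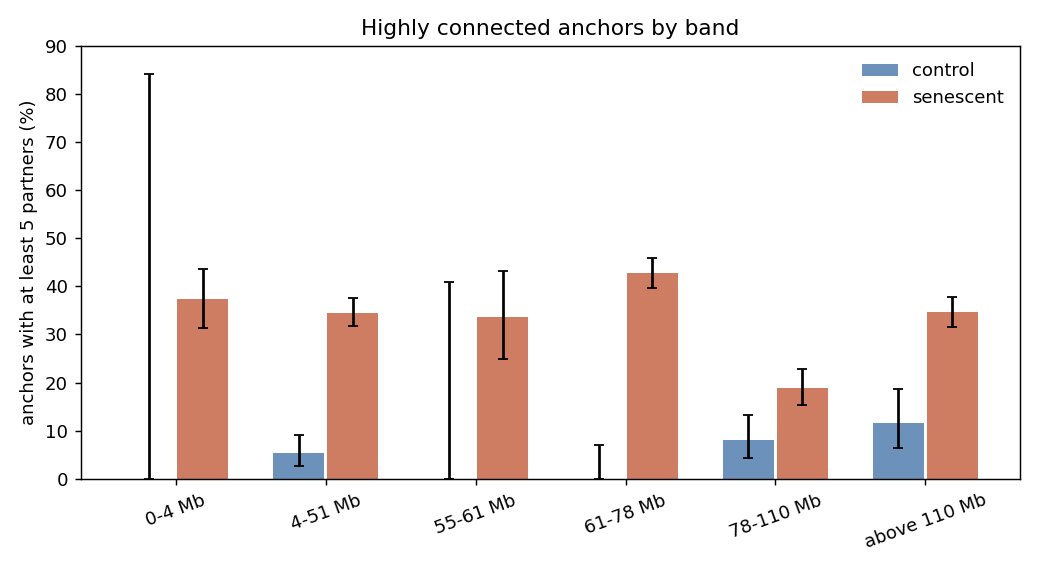
Percentage of anchors with at least 5 partners by band in the control and the senescent library, on a linear axis from 0, with 95% Clopper-Pearson intervals. The senescent bars are highest at 61 to 78 Mb and lowest at 78 to 110 Mb. The control bars at 0 to 4, 55 to 61 and 61 to 78 Mb are at 0, with 2, 7 and 51 anchors.

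Most control sites were also senescent sites in each of the 4 bands with more than 7 control anchors. Over the chromosome, 429 of 571 control anchors (75.1%) overlapped a senescent anchor, and 415 of 3719 senescent anchors (11.2%) overlapped a control anchor. Of the control interactions, 18.6% had a senescent interaction over both anchors. Shares over all autosomes were not computed. A senescent anchor overlapped 44 of 51 control anchors (86.3%, 73.7 to 94.3%) at 61 to 78 Mb, 104 of 121 (86.0%, 78.5 to 91.6%) above 110 Mb, 165 of 228 (72.4%, 66.1 to 78.1%) at 4 to 51 Mb and 112 of 162 (69.1%, 61.4 to 76.1%) at 78 to 110 Mb. Seen from the senescent library the order was the reverse: 24.9% of its anchors (20.9 to 29.2%) overlapped a control anchor at 78 to 110 Mb and 4.27% (3.096 to 5.73%) at 61 to 78 Mb, where there were 983 of them. The senescent anchors covered 22.3% of the 61 to 78 Mb band and 4.66% of the 78 to 110 Mb band, and the part of this coverage in the overlap was not tested. Control interactions with a senescent interaction over both anchors made up 25% (18.3 to 32.8%) above 110 Mb, 18.2% (8.19 to 32.7%) at 61 to 78 Mb, 16.9% (12.4 to 22.3%) at 4 to 51 Mb and 15.6% (10.5 to 21.9%) at 78 to 110 Mb, with overlapping intervals. Those at 4 to 51 and 78 to 110 Mb had median spans of 24.5 and 27.6 kb, against 125.1 and 124.6 kb for the control interactions without a counterpart. Above 110 Mb the medians were 17.2 and 69.6 kb, and at 61 to 78 Mb, with 8 shared interactions, they were 42.8 and 38.9 kb.

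Set beside whole chromosomes, the bands spanned nearly the range of the autosomes. In the senescent library the 61 to 78 Mb band was as dense as chromosome 19, the most gene-dense autosome, with a density ratio of 0.999 (0.954 to 1.05), and denser than the other 21 autosomes. The 0 to 4 Mb band was also denser than these 21, with a ratio of 0.963 (0.881 to 1.05) to chromosome 19. These comparisons set parts of 1 chromosome beside means of whole chromosomes. The 78 to 110 Mb band was less dense than each of the 22 autosomes, with a ratio of 0.899 (0.828 to 0.976) to chromosome 4 and 0.866 (0.794 to 0.943) to chromosome 13. In the control library the 61 to 78 Mb band was 3.92 times (2.49 to 6.20) as dense as chromosome 19, the least dense autosome there at 0.660 per Mb, but denser than only 4 of the 22 autosomes and 0.586 times (0.422 to 0.793) as dense as chromosome 4. The control 78 to 110 Mb band was denser than 20 of the 22 and 1.22 times (1.03 to 1.44) as dense as chromosome 4.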

How the data were processed

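METTL3 HiChIP was measured in 1 control and 1 senescent library of IMR90 cells. Per the labels' protocols, cells were fixed in 1% formaldehyde for 10 min, chromatin was cut with MboI for 2 h, and DNA was tagmented with Tn5. Per the submitters' processing notes, HiC-Pro 3.1.0 and the build hg19 were used; how anchors and interactions were called and whether duplicates were removed was not stated. The authors deposited whole-number counts of PETs per interaction, in tables without a header, and these were used as raw. The last value the authors deposited was taken as a p-value or q-value (which is not stated) and was used only to break ties and as a filter in 1 alternative. Starts were read as counted from 0 and are given from 1, which is an assumption.

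Interactions were placed by contact midpoint and anchors by their own midpoint, and the last band ends at the last listed anchor, at 134.7 Mb. Anchors were shared when they overlapped by at least 1 bp. Tools were Python 3.11.15, numpy 2.4.6, pandas 2.3.3, scipy 1.17.1 and matplotlib 3.10.9. The intervals of window ratios and of medians were checked on simulated independent counts and values, which cannot show the effect of copied PETs. Those of shares were not simulated. The bands, lists and comparisons were chosen with earlier results of these data known. Regions are named by a rule: in each band and library the fullest window, the interaction with the most PETs, the one with the longest span, the 2 anchors with the most partners, and on the chromosome the windows with the 3 highest and 3 lowest ratios. Runs of windows longer than 1 Mb, the landmark genes placed on anchors and the sequences shown were chosen after their values were seen.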

Additional observations from a re-analysis of the deposited data

How the results depend on the processing

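Over 107 alternative values of 31 results, 88 stayed within the interval of the value reported (or within 1.5 times for counts), 17 moved out of it, and 2 moved out of it and changed direction. Of the ratios, 8 values lay on the other side of 1 from the value reported: 2 where the reported interval excluded 1, given below as changed direction, and 6 where it held 1. The ratio of shares stayed between 2.81 and 5.26 at 61 to 78 Mb and between 0.230 and 0.314 at 78 to 110 Mb under counting PETs, asking for both anchors in the band, moving the inner edges 1 Mb up or down, at least 2 PETs, spans of 20 kb or more, a deposited value of at most 0.05, all autosomal interactions as denominator, and leaving out the fullest windows, which was chosen after the data were seen. Without the fullest windows no control contact was left at 0 to 4 Mb, and some other settings also gave no value there. With at least 2 PETs the ratios of shares were 6.61 at 0 to 4 Mb, 1.04 at 4 to 51 Mb (changed direction), 1.21 at 55 to 61 Mb, 2.81 at 61 to 78 Mb, 0.230 at 78 to 110 Mb and 0.701 above 110 Mb, and the ratios of median spans were 0.736 at 61 to 78 Mb (changed direction) and 1.20 above 110 Mb. These rest on 1 to 24 control interactions. With a deposited value of at most 0.05 the ratio above 110 Mb was 1.19. Weighting anchors by their interactions gave width ratios of 1.31 at 4 to 51 Mb and 1.48 at 61 to 78 Mb. Counting partners joined by at least 2 PETs, the share of senescent anchors with at least 5 was 6.01 times higher at 61 to 78 than at 78 to 110 Mb (0.981 to 247). With a tolerance of 5 kb, shared control anchors were 78.9% at 4 to 51 Mb, 78.4% at 78 to 110 Mb and 92.6% above 110 Mb, and shared control interactions were 25.6% at 4 to 51 Mb, 40.9% at 61 to 78 Mb, 27.7% at 78 to 110 Mb and 47.97% above 110 Mb. The cause of these shifts was not tested. The small control table limits every ratio. No paired analysis was possible because each group has 1 library.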
